A study of Rattus norvegicus with 3 samples.

Results

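Coch, Otos, Otor, Mia, Car3 and Dmp1 were taken as a set of 6 genes, out of 32623 genes in the matrices, because their products are known from the fibrocytes, cartilage and bone around the cochlear duct. They were measured in single-cell RNA sequencing of dissociated cochlear basal membrane from untreated Sprague-Dawley rats on postnatal days 1, 7 and 14 (P1, P7 and P14). Rats were pooled and 1 library was made per stage, so that stage and library cannot be told apart and no difference between stages could be tested. According to the study's methods, the spiral ganglion, the spiral ligament and the stria vascularis were dissected off before dissociation, erythrocytes were lysed and dead cells were removed, so the fibrocytes that remained in the libraries are those the dissection left. A barcode was taken as a cell where its gene count lay above 500 and below 5000, its unique molecular identifiers (UMIs) numbered 500 or more and mitochondrial genes took under 25% of them. This left 12779 cells at P1, 12581 at P7 and 5281 at P14.

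The P14 library stood apart in depth. Its kept cells had a median of 1614 UMIs, against 6565 at P1 and 6878 at P7, and its 11641065 UMIs compare with 98005495 and 93080129. Levels are therefore given in CPM, the UMIs of a gene per 1e6 UMIs of the cells summed, with exact 95% Poisson intervals, and shares of cells with a UMI are given after thinning every cell to 1000 UMIs, which left out 37, 193 and 735 shallower cells at P1, P7 and P14. Intervals cover counting error only. The libraries shared 53 kept barcodes between P1 and P7, 16 between P1 and P14 and 19 between P7 and P14, and leaving these out moved no call.

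Fibrocytes of the spiral ligament and spiral limbus are connective tissue cells that are coupled by gap junctions and are known to return potassium from the hair cell region toward the stria vascularis. The cochlear duct is embedded in this tissue and in the cartilage, later bone, of the otic capsule. Cochlin, the product of Coch, is the most abundant protein of the inner ear matrix, and its human gene is mutated in a dominant form of deafness with vestibular loss. Otospiralin, from Otos, is a small secreted protein of these fibrocytes. Otoraplin, from Otor, and the protein of Mia are related secreted proteins, the latter known from cartilage. Car3 codes for a cytosolic carbonic anhydrase, and Dmp1 for an acidic phosphoprotein of dentin and bone matrix that is made by osteocytes.

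The genes differ in the sequence just before their starts. Promoter sequences were taken from RefSeq (assembly GRCr8) for the 250 bases before the annotated start, and 5 of the 6 genes had an entry there; Car3 did not. The 4 genes whose levels differed most between P7 and P14 are shown, 5′ to 3′ on the strand of the gene, with capitals marking matches on either strand to the TATA box (TATAAA), the RUNX motif (TGTGGT), the SOX motif (AACAAT) or the GC box (GGGCGG). The windows are chr6:74766297-74766546 on the plus strand for Coch, chr9:100665899-100666148 on the minus strand for Otos, chr3:150868636-150868885 on the plus strand for Otor and chr14:5840085-5840334 on the minus strand for Dmp1.
Coch: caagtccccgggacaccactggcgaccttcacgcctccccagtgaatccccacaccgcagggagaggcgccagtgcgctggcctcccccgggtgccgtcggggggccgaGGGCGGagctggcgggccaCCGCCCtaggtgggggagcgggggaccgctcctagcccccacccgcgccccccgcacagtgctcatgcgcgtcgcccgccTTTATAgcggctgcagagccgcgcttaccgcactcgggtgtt
Otos: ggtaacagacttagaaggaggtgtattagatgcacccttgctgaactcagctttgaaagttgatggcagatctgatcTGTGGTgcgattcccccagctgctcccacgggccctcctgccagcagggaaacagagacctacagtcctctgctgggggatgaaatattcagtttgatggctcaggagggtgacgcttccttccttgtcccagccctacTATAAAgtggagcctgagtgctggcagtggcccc
Otor: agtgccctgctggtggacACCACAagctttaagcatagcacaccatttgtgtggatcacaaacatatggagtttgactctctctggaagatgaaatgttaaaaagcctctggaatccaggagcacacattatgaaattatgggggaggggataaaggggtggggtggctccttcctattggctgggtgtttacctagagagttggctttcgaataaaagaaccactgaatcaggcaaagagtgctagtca
Dmp1: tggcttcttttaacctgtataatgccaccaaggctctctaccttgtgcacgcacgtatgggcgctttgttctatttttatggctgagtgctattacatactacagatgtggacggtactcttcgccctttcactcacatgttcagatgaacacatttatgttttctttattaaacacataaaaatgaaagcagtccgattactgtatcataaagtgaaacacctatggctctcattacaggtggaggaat

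The Coch window had 74% G and C bases, against a median of 51.2% over 33469 rat promoters of the same length, and held a TATA box on the reverse strand 42 bases before the start with GC boxes 141 and 122 bases before it. The Otos window had 54.4% G and C and held a TATA box 34 bases before the start and a RUNX motif 173 bases before it. A RUNX motif on the reverse strand lay 232 bases before the start of Otor, and the Dmp1 window, with 40% G and C, held none of the 4 motifs. Of all promoters, 12.9% held the TATA box, 14.5% the RUNX motif, 10.3% the SOX motif and 30.5% the GC box, so that a match is a description of letters and not of a bound site.

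The first question was how the level of each gene ran over the 3 stages. Coch (ENSRNOG00000005286) was at 77.4 CPM at P1, 60.0 at P7 and 5753 at P14 (95% interval 5710 to 5797). Otor (ENSRNOG00000028721) ran the other way, with 6101 CPM at P1, 6675 at P7 and 407 at P14 (395 to 418). Between P7 and P14 the most abundant of the 6 thus passed from Otor to Coch. On the log2(CPM + 10) scale the P14 level over the P7 level was 6.36 for Coch and -4.00 for Otor. Thinned to 1000 UMIs, 5.58%, 3.90% and 50.4% of cells held a Coch UMI at P1, P7 and P14 (14.6%, 12.3% and 59.6% unthinned), and 68.8%, 67.3% and 8.29% an Otor UMI (88.5%, 91.2% and 10.4% unthinned).

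Otos, Dmp1 and Car3 were low at P1 and higher at P7. Otos (ENSRNOG00000016567) was at 34.2, 306 and 1644 CPM over the 3 stages, Dmp1 (ENSRNOG00000002167) at 6.31, 68.4 and 404 CPM, and Car3 (ENSRNOG00000010079) at 8.21, 122 and 67.9 CPM. The log2 ratio of P7 over P1 was 2.84 for Otos, 2.27 for Dmp1 and 2.86 for Car3. From P7 to P14 it was 2.39 for Otos, 2.40 for Dmp1 and -0.76 for Car3. The P14 level of Otos rested on 26 cells described further on; without them it was 540 CPM and the log2 ratio to P7 was 0.80. Mia (ENSRNOG00000001499) was at 109, 136 and 39.3 CPM, with a log2 ratio of 0.29 from P1 to P7 and -1.56 from P7 to P14.

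A ratio past 1 on the log2 scale, in either direction, was taken as a call, since 1 library per stage allows no test. From P1 to P7, 3 of the 6 genes were called higher (Otos, Car3 and Dmp1) and 0 lower, where 3.32% of 7750 genes (those reaching 10 CPM over the summed UMIs of the 3 stages, which P1 and P7 dominate) were called higher and 1.99% lower. From P7 to P14, 3 were called higher (Coch, Otos and Dmp1) and 2 lower (Otor and Mia), against 8.03% of all genes called higher and 5.34% lower. The median log2 ratio of all genes was 0.092 from P1 to P7 and 0.018 from P7 to P14.

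**Figure D1:**
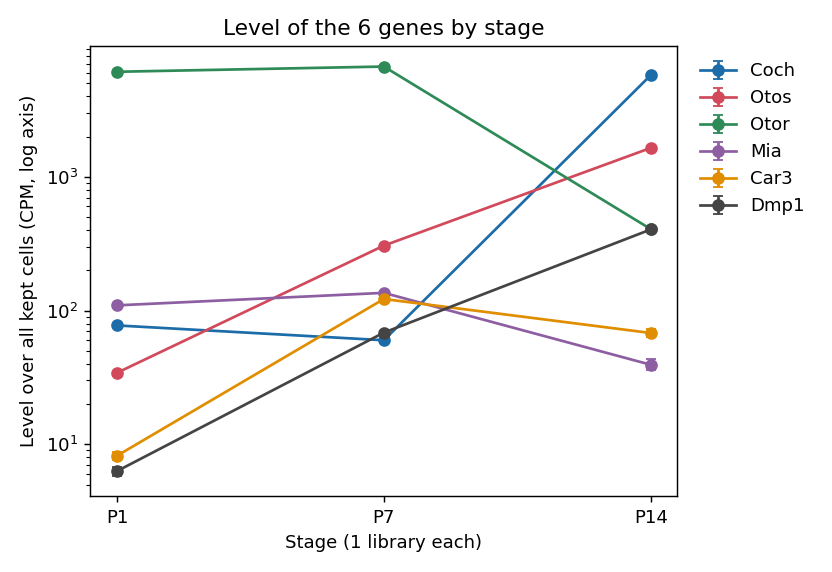
Level of each of the 6 genes over all kept cells of a stage, in CPM on a log axis, with 1 library per stage and exact 95% Poisson intervals (smaller than most points). Otor runs from 6101 and 6675 CPM at P1 and P7 to 407 at P14, while Coch runs from 77.4 and 60.0 CPM to 5753.

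The second question was which cells held the UMIs. The cells were clustered with the 6 genes left out of the variable genes, so that their levels took no part in forming the 28 clusters, and clusters were named only from marker lists. The plot of levels by cluster and stage covers every cluster with 50 or more cells of a stage, 19 at P1, 19 at P7 and 11 at P14. Few clusters spanned P7 and P14, and a cluster made up almost wholly of 1 library may be that library rather than a cell type.

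The 6 genes did not share 1 cell type. At P1 and P7 the highest levels of all but Dmp1 at P1 (cluster 25, unnamed) fell into cluster 0, which was otic mesenchyme-like by Isyna1, Crym and Col9a3, cluster 12, which was cartilage-like by Cnmd and Cytl1, cluster 17, which was cochlear epithelium-like by Epcam, Tecta and Tectb, and the fibroblast-like cluster 5. At P14 the highest level lay in cluster 17 for Otos, Mia and Car3, in cluster 20 for Otor and in cluster 6, which stayed unnamed, for Coch and Dmp1. For Otos and Car3 it rested on 26 cells of cluster 17, described further on, in which Cdh1 was the only epithelium marker found. The leading marker list of cluster 6 was that of osteoblasts, with a mean log2 ratio of 3.24 to all other cells and Phex among its 10 leading genes. It stayed unnamed because that name also required Bglap, Ibsp or Sp7 among those 10. Its 1729 P14 cells held osteoblast markers (Bglap 4720 CPM, Ibsp 3030 CPM) and fibroblast markers (Dcn 6047 CPM, Col3a1 4093 CPM). UMIs of all 8 fibrocyte markers were also found, with Gjb2 (a gap junction gene) at 1184 CPM and Ptgds at 3004 CPM. The fibrocyte-like cluster 13, with 846 of its 849 cells from P14, was led by Ptgds, Slc7a11 and Slc16a11. Cluster 13 was the only cluster named fibrocyte-like, with 2 cells at P1 and 1 at P7. No fibrocyte-like cluster could therefore rank highest at those stages, and they do not bear on the label of fibrocyte genes. At P14 none of the 6 genes was highest in cluster 13. Cluster 6 and the 26 cells did hold fibrocyte markers beside others.

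Coch, the matrix gene, was highest in the otic mesenchyme-like cells at P1 and P7 and in cluster 6 at P14. In the otic mesenchyme-like cells it was at 268 CPM at P1 (261 to 275) and 259 CPM at P7 (246 to 273). These cells held 78.1% of the Coch UMIs of P1 and 26% of those of P7, when 39.9% lay in cluster 2, led by Dlx5, Sfrp4 and Gdf10, at 133 CPM. At P14 Coch stood at 18058 CPM in cluster 6 (17905 to 18213), with a UMI in 86.3% of thinned cells, and cluster 6 held 79.0% of its UMIs. The next levels were 3945 CPM in 63 pericyte and smooth muscle-like cells, 3753 CPM in cluster 20, led by Clec3b and Gpcpd1, and 2752 CPM in macrophage-like cells. Few cells carried the first 2 of these, since the 10% of cells with the most Coch held 89.0% and 82.2% of its UMIs there, with medians of 0 and 0.19 per 1000 UMIs. In the fibrocyte-like cells it was at 1500 CPM (1441 to 1561), with a UMI in 34.5% of thinned cells, which was below the 45.1% of macrophage-like cells.

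Within cluster 6 the cells spanned a wide range of Coch. Counted per 1000 UMIs, Coch had a median of 13.4, with 2.88 at the first quartile and 28.7 at the third. In 1137 P14 cells Coch was over 1% of the cell's UMIs, and these cells held 86.0% of its UMIs of the stage. Of them, 995 lay in cluster 6, 38 in cluster 20, 32 in the fibrocyte-like and 32 in the macrophage-like cluster. At P1 0 cells and at P7 2 cells passed that level, and the highest share of 1 cell's UMIs was 0.74%, 1.2% and 15.1% at P1, P7 and P14.

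Otor, the relative of Mia, was spread over more cells than the other 5 genes at P1 and P7. It was highest in cartilage-like cells, at 15547 CPM at P1 and 21015 CPM at P7, and next in otic mesenchyme-like cells, at 13594 and 20766 CPM. The intervals at P7 (20911 to 21118, and 20647 to 20886) met closely without overlapping. The otic mesenchyme-like cells held 50.3% of the Otor UMIs of P1. Clusters 4 and 8 were at 8092 and 7525 CPM at P1, and the lowest level at that stage was 173 CPM in the glia-like cluster 1. At P14 Otor was highest in cluster 20, at 1824 CPM (1735 to 1916) with a UMI in 48.3% of thinned cells, and in cluster 6 it was at 899 CPM in only 9.67%. Of its 4733 UMIs at P14, 54.8% lay in 59 cells.

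Otos was concentrated in few cells at every stage. It was highest in cartilage-like cells at P1 (527 CPM) and at P7 (2336 CPM, 2301 to 2370), where they held 61.8% of its UMIs. The otic mesenchyme-like cells held 70.6% of its UMIs at P1, at 107 CPM. At P7, 98 cells (0.78% of all) had Otos at over 1% of their UMIs and together held 76.1% of its UMIs. Of these, 53 were cartilage-like, 28 lay in cluster 2 and 10 in cluster 18, which was led by hemoglobin genes. At P14, 75 cells held 89.7% of its UMIs, with 42 in cluster 6 and 27 in cluster 17.

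The P14 cells of the cochlear epithelium-like cluster 17 were of 2 kinds. Clustered more finely, again without the 6 genes, 26 of its 79 cells formed a cluster of their own, a split that was made after the data were seen. In these 26 cells Otos made up between 2.00% and 44.1% of a cell's UMIs, with a median of 26.7%, and they held 67.3% of all Otos UMIs of P14. Car3 was at 1319 CPM in them, Otor at 579 CPM and Mia at 79.9 CPM, and Dmp1 had no UMI, which allows up to 73.7 CPM. Of the 9 epithelium markers only Cdh1 was found, at 59.9 CPM in sum, and of 10 hair cell markers none. Of 7 cartilage markers 4 were found, Ucma and Cnmd at 8971 and 3736 CPM, Acan at 79.9 CPM and Cytl1 with 2 UMIs, while Hapln1, Matn1 and Matn3 had 0. Of 8 fibrocyte markers 6 were found, with Gjb2 at 1059 CPM, Gjb6 at 1119 CPM and Ptgds at 13187 CPM, which was below its 35937 CPM in the other 53 cells, and Slc16a11 and Kcnk2 had 0. Other genes, chosen after their values were seen, were S100b at 46693 CPM, Fbxo2 at 8132 CPM, Gsta1 at 3457 CPM and Gcg at 2098 CPM. Gcg is among the 10 leading genes of the cartilage-like cluster 12, whose cells came from P1 and P7 only, Ucma among those of cluster 17, and Fbxo2 among those of both. The other 53 cells held all 9 epithelium markers, at 1944 CPM in sum (Tectb with 1 UMI), and had Otos at 1344 CPM. They also held all 3 strial marginal cell markers, at 4417 CPM in sum (Lrp2 2820.5 CPM, Kcne1 1377 CPM, Kcnq1 219 CPM). Median depth was 1795 UMIs in the 26 cells and 3933 in the other 53.

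By cluster, Mia was the gene of the set with an epithelial high point at every stage. In the cochlear epithelium-like cluster it was at 2868 CPM at P1 (2800 to 2938), 3921 CPM at P7 (3831 to 4013) and 966 CPM at P14 (850 to 1093), and these cells held 63.1%, 56.4% and 54.8% of its UMIs. A Mia UMI was found in 78.2%, 78.4% and 22.7% of thinned cells. The P14 values include the 26 cells described above, with Mia at 79.9 CPM and a UMI in 15.4% of them unthinned. In the other 53 cells Mia was at 1177 CPM, with a UMI in 43.4% unthinned. The cartilage-like cells came next at 246 CPM at P1 and 389 CPM at P7, which is 11.7-fold and 10.1-fold lower. In otic mesenchyme-like cells the shares of 6.81% at P1 and 3.58% at P7 compare with 4.26% (1.85 to 8.21) and 1.73% in the immune cells described below.

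Car3 was highest in the cartilage-like cells at P1 and P7. At P1 these held 26.1% of its UMIs, fewer than the 47.3% in the more numerous otic mesenchyme-like cells at 17.2 CPM. It was at 212 CPM in the cartilage-like cells at P1 and 1052 CPM at P7 (1029 to 1075), with a UMI in 40.2% of thinned P7 cells, and these cells held 69.8% of its P7 UMIs. The next level at P7 was 137 CPM in the glia-like cluster 14, of which Scrublet marked 85.6% as doublets. At P14 the levels in cluster 17 (262 CPM, 203 to 332) and cluster 6 (219 CPM, 202 to 236) overlapped, and cluster 6 held 80.9% of the UMIs in 3.63% of its thinned cells. In cluster 17 the 26 cells described above were at 1319 CPM and the other 53 at 9.53 CPM.

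Dmp1, the bone matrix gene, was at 36.5 CPM or less in every cluster at P1. At P7 it was highest in fibroblast-like cells, at 207 CPM (199 to 215) with 41.4% of its UMIs, followed by dividing cells of cluster 10 at 152 CPM, cluster 3 at 128 CPM and cluster 2 at 112 CPM. At P14 cluster 6 held 82.8% of its UMIs at 1329 CPM (1288 to 1372), with a UMI in 53.6% of thinned cells, and the fibrocyte-like cells were at 97.6 CPM.

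**Figure D2:**
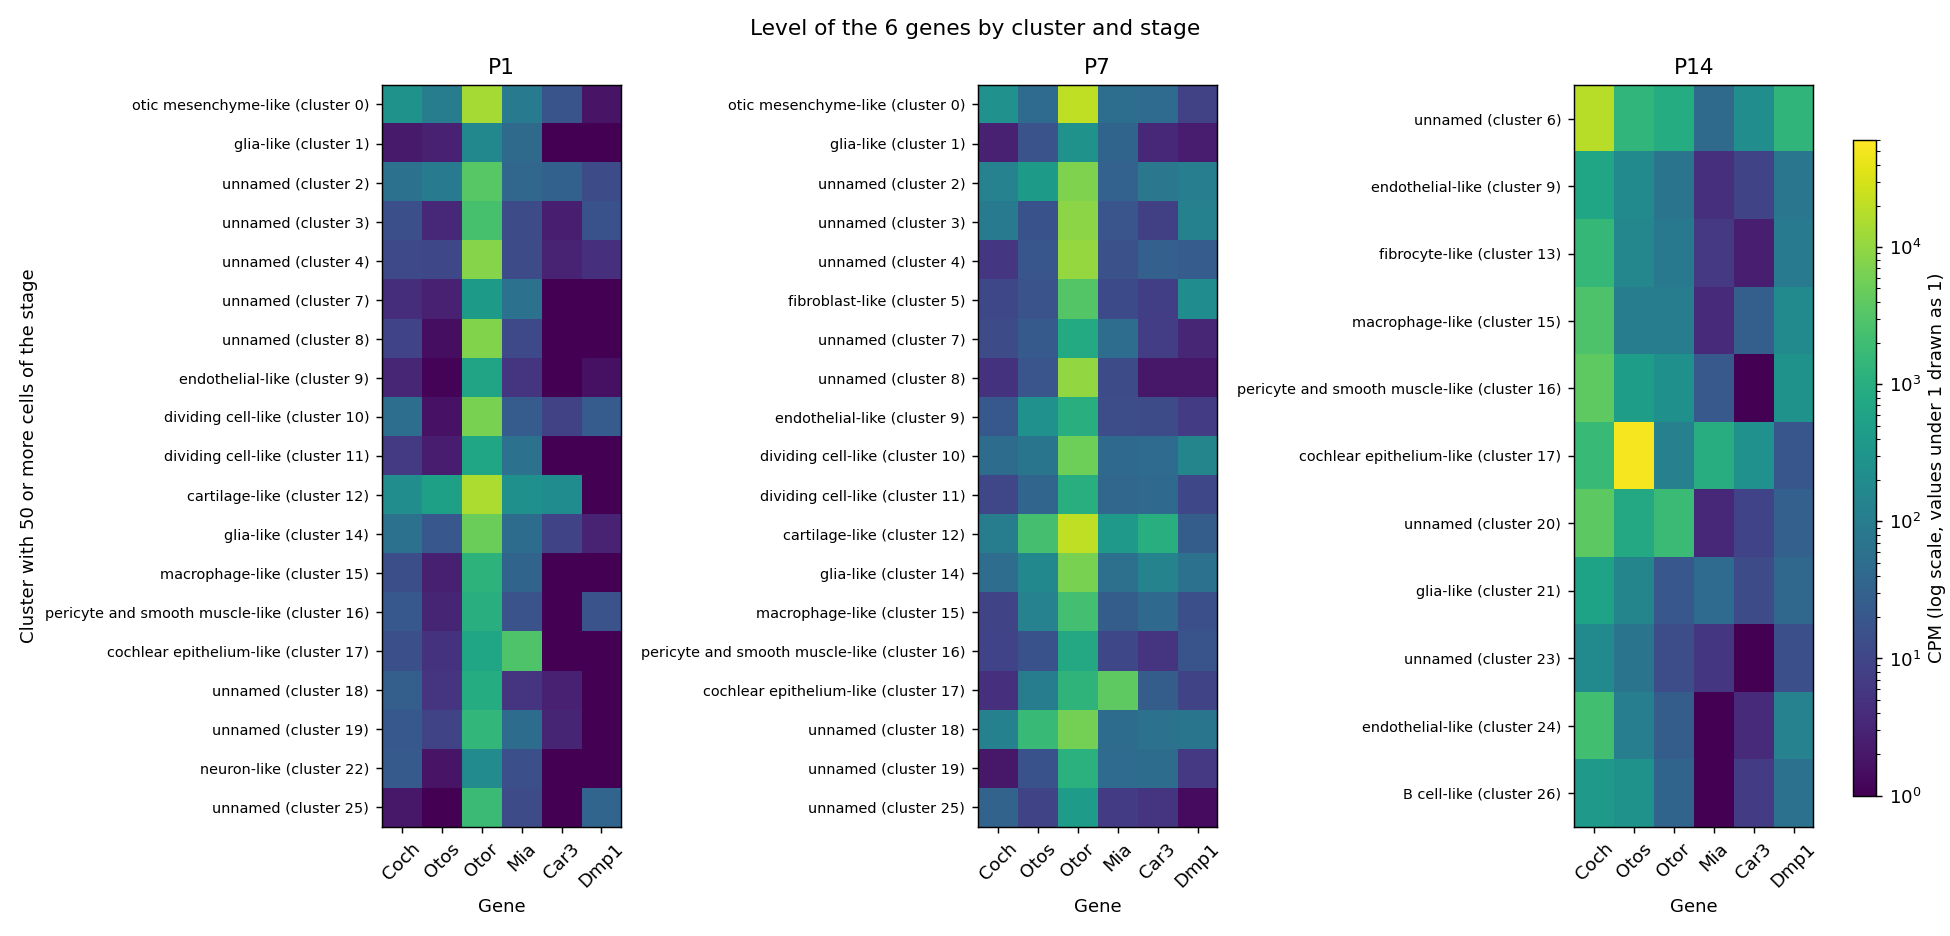
Level of the 6 genes in each cluster with 50 or more cells of a stage, as CPM on a log color scale, with 1 panel per stage. At P1 and P7 Otor is at 173 CPM or more in every cluster, and at P14 the highest levels are Otos in cluster 17 (50638 CPM, of which most lies in 26 cells) and Coch in cluster 6 (18058 CPM).

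Changes between stages were then read within clusters, where the mix of cells weighs less. There were 18 clusters with 50 or more cells at both P1 and P7. A gene was counted in a cluster where it reached 10 CPM over the summed UMIs of both stages. A gene low at P1 passes only where it is high enough at P7, and one low in the stage with more UMIs can be left out, so the counts are descriptive. Those left out with a ratio past 1 were Otos in clusters 7 and 8 (1.33 and 1.29), Car3 in cluster 9 (1.16) and Dmp1 in clusters 11 and 15 (1.03 and 1.2). Otos was past 1 higher at P7 in 10 of 13 such clusters and lower in 1, Car3 higher in 11 of 11, and Dmp1 higher in 7 of 9 and lower in 1. The clusters counted include macrophage-like cells (Otos 3.48, Car3 2.31). In these, Otos and Car3 at P7 were at 43.0% and 35.1% of their levels over all kept cells. They also include glia-like cluster 14 (2.64 and 2.92), of which Scrublet marked 85.6% as doublets. The counts are therefore not read as changes in that many cell types. Coch was higher in 4 of 13 clusters and lower in 1, Otor higher in 4 of 18 and lower in 1, and Mia higher in 1 of 16 and lower in 0. Over all genes in these 18 clusters, 4.05% of the values were called higher and 3.01% lower. In the cartilage-like cells the log2 ratio of P7 over P1 was 2.13 for Otos and 2.26 for Car3, with Otor at 0.43 and Coch at -0.96.

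From P7 to P14 only 4 clusters had 50 or more cells at both stages, the endothelial-like cluster 9 and the macrophage-like, pericyte and smooth muscle-like and cochlear epithelium-like clusters. Coch was called higher in 4 of 4 and Otor lower in 4 of 4, against 12.7% of all gene values called higher and 11.2% called lower over these clusters. Coch was at 20.3 CPM at P7 and 653 CPM at P14 in the endothelial-like cells and at 9.44 and 2752 CPM in the macrophage-like cells, with log2 ratios of 4.45 and 7.15. Otor was at 1016 and 67.6 CPM in the first and 2254 and 102 CPM in the second, with log2 ratios of -3.73 and -4.34. The directions over the whole libraries were thus also measured in cells of blood vessel and immune lineages, whose own levels are taken up in the paragraphs on free RNA.

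The third question was whether the genes were found in the same cells. Within a cluster and stage, the number of thinned cells with a UMI of both genes of a pair was set beside the number expected from the product of the separate shares, and a ratio was read where that product reached 5 cells. This gave 119 ratios over 15 pairs, of which 10 were above 1.5. Cells in which 3 or more of the 6 genes were found made up 1.24% of all thinned cells at P1, 2.45% at P7 and 7.46% at P14. They reached 18.7% in cluster 17 at P14, 18.2% in the cartilage-like cells at P7 and 17.5% in cluster 6 at P14, and 0 cells held all 6.

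Coch and Otos were found together more often than the product in 10 of 11 groups, with a median ratio of 1.12 and 4 ratios above 1.5. Other pairs were often above the product too, Coch and Otor in 18 of 20 groups (median 1.09, 0 above 1.5) and Otos and Otor in 10 of 14. Coch and Dmp1 were above it in 6 of 7 groups, and Coch and Car3 in 0 of 4. The count of groups is therefore not read as particular to Coch and Otos. In otic mesenchyme-like cells at P1, 37 cells held both, against a product of 16.2. In cluster 2 at P7 there were 45 such cells against 12, a ratio of 3.75, and in cartilage-like cells at P7 30 against 12, a ratio of 2.49. In cluster 6 at P14, where 86.3% of cells held Coch, 278 cells held both against 269, a ratio of 1.03. Coch and Mia were also found together in otic mesenchyme-like cells at P1, in 97 cells against 39.9.

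Coch and Car3 were found together less often than the product in 4 of 4 groups. In otic mesenchyme-like cells at P1 only 1 cell held both against a product of 9.32, in cartilage-like cells at P7 9 against 22.9, in cluster 6 at P14 28 against 49.2, and in cluster 2 at P7 6 against 6.76. Otos and Car3, although both were highest in the cartilage-like cells at P7, were found together there in 29 cells against 66.7, a ratio of 0.43. Otos and Dmp1 were found together in 4 cells of cluster 2 at P7 against 11.6.

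Coch and Dmp1 depended on how far cells were pooled. Over all P14 cells 909 held both against 516, a ratio of 1.76, while within cluster 6, which held most of the UMIs of each, it was 793 against 728, a ratio of 1.09. In the fibrocyte-like cells the ratio was 1.74, in macrophage-like cells 1.79 (33 against 18.5) and in the endothelial-like clusters 9 and 24 2.63 and 2.41.

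**Figure D3:**
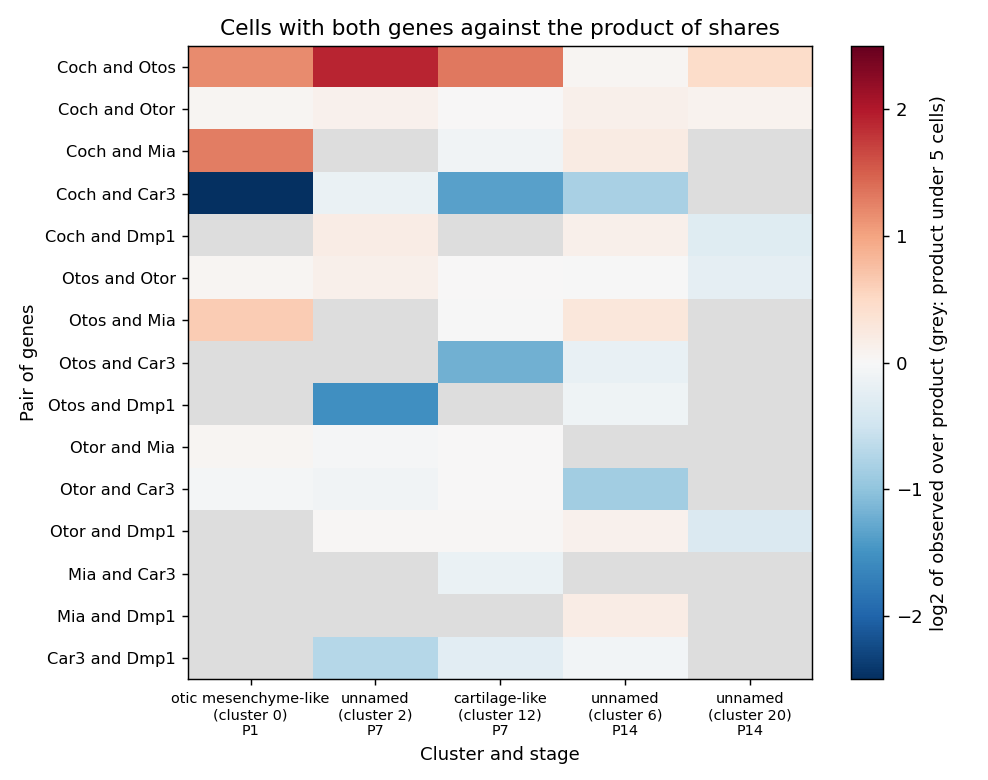
Log2 of the number of thinned cells with both genes of a pair over the product of the separate shares, for 5 groups of cells, with red above and blue below 0 grey where the product was under 5 cells, and values beyond the scale in its end color. Coch and Otos are red in the otic mesenchyme-like, cluster 2 and cartilage-like groups (2.28, 3.75 and 2.49 before the log), and Coch and Car3 are blue in each group drawn in color.

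Marker genes in the cells with and without a member showed how these groups were divided. In otic mesenchyme-like cells at P1, Isyna1, which codes for inositol phosphate synthase, was found in 53.2% of cells with Coch (95% Clopper-Pearson interval 49 to 57.3) and 16.0% of cells without it (14.7 to 17.5). It was found in 53.2% of cells with Otos and 53.7% of those with Mia, against 21.6% and 20.2% without. Emcn ran the other way, in 9.74% of cells with Coch against 19.5%, and in 2.13% of cells with Otos against 18.2%. Cnmd, the cartilage gene chondromodulin, was found in 47 of the 94 cells with Otos and 13.5% of cells without it. Isyna1 and Emcn were the extremes of the otic mesenchyme list, of which 3 of 7 markers had a ratio above 1 for Coch and 3 of 7 for Otos, with medians of 0.994 and 0.979.

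In the cartilage-like cells at P7 the fibrocyte markers divided Otos from Car3. Gjb2 was found in 32.5% of cells with Otos (25.5 to 40.2) and 8.06% of those without, and in 9.49% of cells with Car3 (6.50 to 13.3) and 15.7% of those without. Gjb6, the partner gap junction gene, was found in 16.9% of cells with Otos against 4.19%, and in 4.11% of cells with Car3 against 8.72%. Of 5 fibrocyte markers with a ratio, 5 were above 1 for Otos, with a median of 2.46, and 1 was above 1 for Car3. The other potassium return genes did not follow this division, with 0 of 3 above 1 for Otos (median 0.65) and 1 of 4 for Car3 (median 0.97).

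In cluster 6 at P14 bone genes divided the set. Bglap, the osteocalcin gene, was found in 59.6% of cells with Car3 (45.8 to 72.4) and 13% of those without, and Ibsp, for bone sialoprotein, in 61.4% against 14.3%. Gjb2 was found in 19.3% of cells with Car3 and 53.1% of those without. Cells with Coch had Col1a1, the chain of bone and fibrous collagen, in 9.06% (7.59 to 10.7), against 57.7% (50.8 to 64.4) of the cells of cluster 6 without Coch. For Dmp1 the shares lay nearer to each other: Bglap was found in 17.6% of cells with Dmp1 and 11.4% of those without, and Phex in 27.6% against 18.2%. The osteoblast markers Sp7 and Mepe were near 0 in cluster 6, at 1.02 and 2.05 CPM. Cells with Otor had Col9a3, an otic mesenchyme marker, in 24.3% (17.8 to 32.0) against 7.54%.

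**Figure D4:**
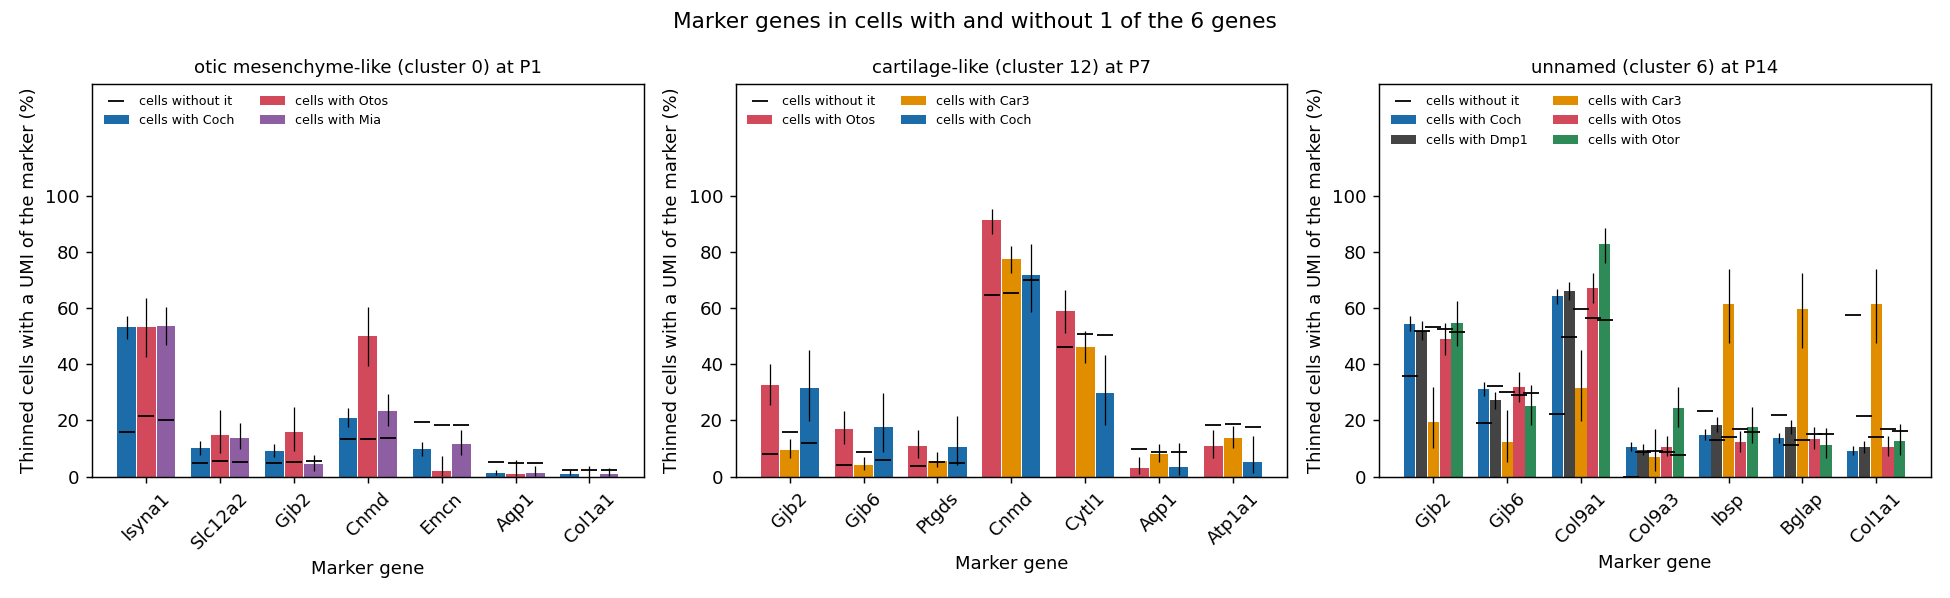
Share of thinned cells with a UMI of a marker gene, in percent, among cells with 1 of the genes (bars, with exact 95% intervals) and among the other cells of the same cluster and stage (black dashes). In cluster 6 at P14 Bglap and Ibsp stand at 59.6% and 61.4% in cells with Car3, against 13% and 14.3% in cells without it.

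The level in unrelated cells was measured as a limit on reading small shares. Macrophage-like cells and B cell-like cells (the latter nearly all from P14), taken as types outside the tissues these genes are known from, numbered 189 at P1, 175 at P7 and 474 at P14, with median depths of 7436, 6888 and 2033 UMIs. Otor was at 1232 CPM in them at P1 and 2254 CPM at P7, which is 20.2% (19.3 to 21.1) and 33.8% (32.6 to 35.0) of its level over the library. Its UMIs were found in 23.4% and 38.7% of the thinned cells (67.7% and 81.7% unthinned). The median over these unrelated cells was 147 CPM at P1 and 318 CPM at P7, against 2787 and 1984 CPM over all kept cells. The 10% of macrophage-like cells with the most Otor held 90.3% and 82.9% of their Otor UMIs. In the glia-like cluster 1 Otor was at 2.83% and 4.32% of the library level from summed counts. The medians per 1000 UMIs lay nearer to each other. They were 0.152 and 0.259 in cluster 1 and 0.141 and 0.318 in macrophage-like cells at P1 and P7.

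At P14 Coch too was found in unrelated cells. In macrophage-like cells it was at 47.8% of its library level (46.4 to 49.3), with a UMI in 45.1% of thinned cells, and in B cell-like cells at 6.48% (4.85 to 8.47) with a UMI in 23.8%. The median over the cells of both types was 92.3 CPM, against 2549 CPM from the summed counts, and the 10% of macrophage-like cells with the most Coch held 65.9% of their Coch UMIs. Dmp1 was at 46.6% of its library level in macrophage-like cells and 15.7% in B cell-like cells. Otos was at 6.47% and 16.7%, so that within the P14 library the genes did not stand in the same ratio in both types. The part that free RNA and doublets had in these values was not tested, and Scrublet, a doublet caller, marked only 2 of the 5281 P14 cells.

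Barcodes with 500 genes or fewer gave another measure. At P14 there were 1027 of them, in which hemoglobin genes made up 11.4% of the UMIs (27.2% at P1 and 41.1% at P7), and Otos was at 6369 CPM, 387% of its level in kept cells, beside 93.5% for Coch, 138% for Dmp1, 122% for Car3 and 40.8% for Otor. At P1 and P7 Otor was at 18.7% and 14.0% and Coch at 74.8% and 30.4%.

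These backgrounds limit several shares given above. At P14 an Otos UMI was found in 19.8% of cells of cluster 6, in 20.6% of B cell-like cells, in 15% of the endothelial-like cluster 9 and in 12% of macrophage-like cells, so the share in cluster 6 is not read as a difference, while its level of 1389 CPM against 274 and 190 CPM in the B cell-like and endothelial-like cells rests on few cells. The Coch share of the fibrocyte-like cells at P14 (34.5%) lay below that of macrophage-like cells and above those of B cell-like (23.8%), glia-like (25.5%) and endothelial-like cells of cluster 9 (23.4%), and is not read as a difference either. Otor shares at or under 38.7% at P7 did not exceed that of macrophage-like cells. The shares of Coch and Dmp1 in cluster 6 (86.3% and 53.6%), the Mia share of the epithelium-like cells, the Car3 share of the cartilage-like cells at P7 and the Otor share of cluster 20 (48.3%, against 3.36% in unrelated cells) were above those in unrelated cells of the same stage.

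**Figure D5:**
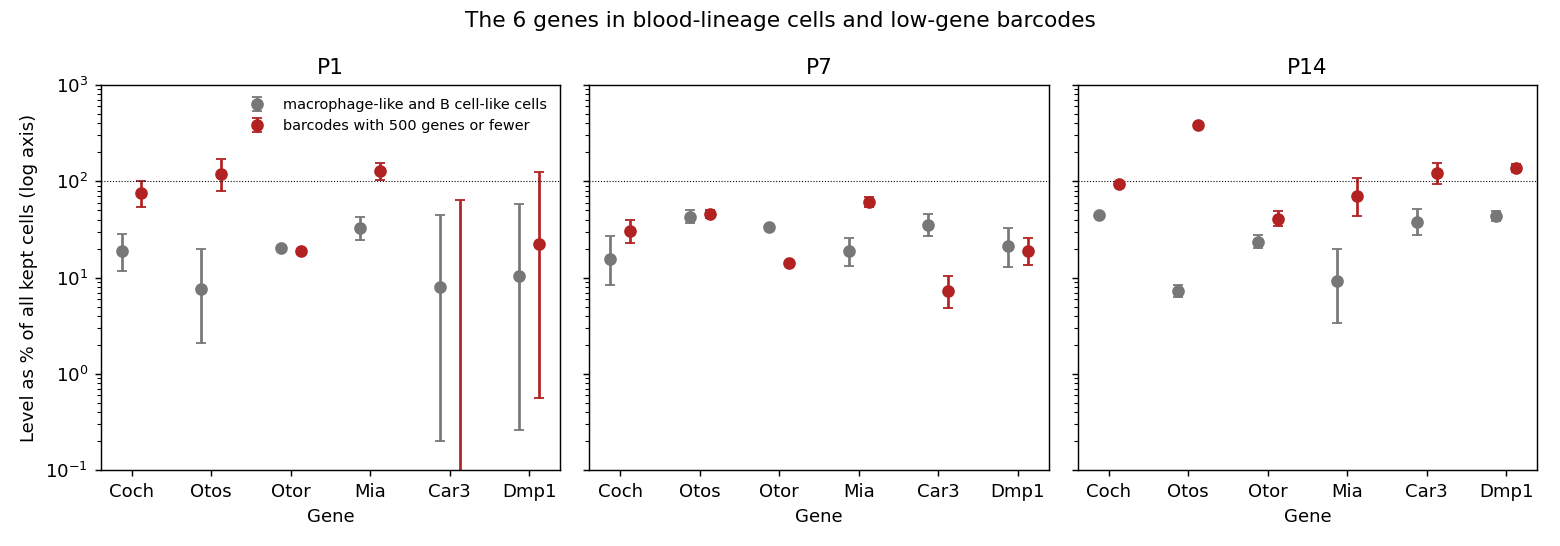
Level of the 6 genes in macrophage-like and B cell-like cells together (grey) and in barcodes with 500 genes or fewer (red), as a percentage of the level over all kept cells of the stage on a log axis, with exact 95% Poisson intervals and a dotted line at 100%. Otos in the low-gene barcodes at P14 stands at 387%, and Car3 in those of P1 had 0 counts, so that only its interval is drawn.

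Relatives of the 6 genes were described from lists of families, and the family counts include genes of the set themselves. Over all genes, 8.03% were called higher and 5.34% lower from P7 to P14, and 3.32% were called higher from P1 to P7. In the MIA and otoraplin family, 2 of 3 members at 10 CPM or more over all kept cells were lower at P14 than at P7 (Otor and Mia) and 0 higher, with Mia2 at 0.93. Among the relatives of cochlin by domain, 2 of 3 were higher (Coch, and Crispld2 at 1.60), and Vit, the closest, stayed under 10 CPM at 0.28, 0.91 and 2.75 CPM. Of the 16 carbonic anhydrases 3 reached 10 CPM over all kept cells, and 2 of these were higher at P7 than at P1 (Car3, and Car2 at 1.30), while Car11 was at -1.04 from P7 to P14. That limit leaves out Car1, at 69.5 CPM at P14 and highest in macrophage-like cells, and Car14, at 42.6 CPM, with log2 ratios of 2.92 and 1.24 from P7 to P14. Car2 was highest in cluster 25 at P7, at 1557 CPM.

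The bone phosphoproteins of the SIBLING family, to which Dmp1 belongs, and the proteins that act on them counted 6 members over 10 CPM, of which 4 were higher at P14 than at P7 and 0 lower (8.03% and 5.34% of all genes), with a median log2 ratio of 2.23 against 0.018 for all genes. They were Ibsp (5.14), Spp1 (2.71), Dmp1 (2.40) and Phex (2.07), the last coding for an endopeptidase needed for phosphate balance. Ibsp, Dmp1 and Phex were each highest in cluster 6 at P14, and Spp1 in cluster 17 at P14. Dspp, the neighbor gene of dentin, was at 0.19 CPM or less. Of 10 genes of the potassium return by fibrocytes, 6 were higher at P14 and 0 lower, against 8.03% and 5.34% of all genes, with a median of 1.95. Gjb2 and Gjb6 were at 2.36 and 2.58 and Slc12a2, the sodium, potassium and chloride carrier, at 2.24, and of these Slc12a2 was highest in cluster 17 and Gjb2 and Gjb6 in the fibrocyte-like cells.

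The genes whose pattern was most like each member were named by Pearson's correlation of log2(CPM + 10) over the 49 groups of cluster and stage, among 7750 genes, as a description in which groups of 1 stage share a library. Otor was followed most closely by Crym (0.901), Serpinf1 (0.882), Pou3f4 (0.878), a transcription factor of otic mesenchyme whose human gene is mutated in X-linked deafness, Mdfi and Nkx6-1. Mia was followed by Fbxo2 (0.895), Chmp4c, Cited1, Tecta and Wfdc2, and Car3 by Gcg (0.869), Ppp1r1b, Col11a2, Rbpjl and Otos (0.730). The nearest to Otos was Car3, then Gsta1, Ppp1r1b, Cyp4f6 and Itpr1, all at 0.730 or less. Dmp1 was nearest to LOC100911545 (0.875), Myoc, Adam11, Col1a2 and Kit, and Coch to Zg16b (0.872), LOC100910944, Tnrc6a, Snrnp70 and Grcc10. Among the 6 genes Otos and Car3 (0.73), Coch and Otos (0.69) and Coch and Dmp1 (0.67) were the most alike over groups, although Otos and Car3 were found in the same cells less often than the product in the cartilage-like cells.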

How the data were processed

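Droplet single-cell RNA sequencing was made from the cochlear basal membrane of pooled rats, with 1 library per stage (10x Chromium 3' V3). The authors aligned reads to rn6 and deposited unnormalized UMI counts per gene and barcode, made with Cell Ranger 3.1.0 per the file headers. The submitters' notes also name Seurat 3.1.1 and bcl2fastq. From these counts, cells were filtered, then clustered with Seurat 5.3.0 in R 4.3.3 (10 components, resolution 0.8, 1994 variable genes after the 6 members were removed). Clusters were named from 19 marker lists (130 of 138 markers were in the matrix). UMIs were summed per stage and cluster, and log2 ratios were taken with 10 CPM added. Co-detection was counted after thinning to 1000 UMIs, where the product of shares reached 5 cells. Scrublet (scanpy 1.11.5) marked doublets, which were kept. Other tools were Python 3.11.15, numpy 2.4.6, scipy 1.17.1, pandas 2.3.3, anndata 0.12.19 and matplotlib 3.10.9. Scripts were tested on simulated data. The members and lists were chosen with earlier results of these data known. Named genes were the members, their markers and family lists, and the 5 genes most like each member. With 1 library per stage no test was made. Alternatives covered filters, thinning, scaling, clustering, doublets and free RNA. 1 marker gene is not reported here.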

Additional observations from a re-analysis of the deposited data

Results flagged for a closer look

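Within clusters, the level of some genes moved in opposite directions from P1 to P7. These differences were not tested, since each stage is 1 library. The log2 ratio of Coch was 2.11 in cluster 3 and -1.34 in cluster 19. That of Otos was 6.83 in cluster 18 and -1.05 in the otic mesenchyme-like cells. That of Otor was 2.72 in cluster 18 and -2.13 in cluster 25, and that of Dmp1 was 3.02 in cluster 18 and -2.03 in cluster 25. Cluster 18, led by hemoglobin genes, had 84 cells at P1 and 278 at P7.

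Barcodes with 500 genes or fewer were not among the kept cells and were used only in the measures of free RNA. They held 3 of the genes at levels whose whole interval lay above that of the kept cells of the stage. Mia was at 138 CPM in those of P1, and at P14 Otos was at 6369 CPM and Dmp1 at 559 CPM.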

How the results depend on the processing

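No paired analysis was possible because each stage has 1 library, and for the same reason no replicate could be left out. Of the summary values under alternatives, 41 stayed within 1.5 times the reported value and 2 moved. Of the values for single genes or groups, 161 stayed within the limits set, 96 moved and 1 lost its call. Pairs found together over 1.5 times the product were 10 of 119, and without thinning 27 of 287. Of the 30 most similar genes, 9 were also named by Spearman's correlation. The sign was kept by every other ratio between stages, while Otor from P1 to P7 (0.13) was -0.07 as a mean over cells, so no direction is given for it. Without the 26 cells with most Otos, an alternative chosen after the data were seen, 2 and not 3 genes were called higher at P14 than at P7, and the Otos ratio ran from 0.80 to 2.54 over 8 alternatives. The cells with the highest level were the same in 15 of 18 cases with the 6 genes kept for clustering and in 12 of 18 with cells assigned 1 by 1 from markers. By that assignment Car3 and Dmp1 at P14 were highest in osteoblast-like cells, at 1763 and 2577 CPM. Scrublet marked 4.87%, 6.16% and 0.0379% of cells at P1, P7 and P14, too few at P14 to use there. The depth of P14 limits its shares of cells.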
